A study of Mus musculus with 9 samples.

Results

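Replication-dependent histone genes encode the linker histone H1 and the core histones H2A, H2B, H3 and H4 that package newly copied DNA. They were taken as the protein-coding genes of the count table whose symbol begins with Hist1h, Hist2h, Hist3h or Hist4h, and 67 of 22396 genes met this rule. The 67 comprised 6 H1, 18 H2A, 18 H2B, 12 H3 and 13 H4 genes. By their symbols, 54 belong to the Hist1 cluster on chromosome 13, 10 to the Hist2 cluster on chromosome 3, 2 to Hist3 on chromosome 11 and 1 to Hist4 on chromosome 6. These genes are transcribed in S phase from histone locus bodies, where NPAT acts, and most of their mRNAs end in a stem-loop bound by SLBP in place of a poly(A) tail. A few of them, among them Hist2h2be, Hist1h2bc and Hist1h1c, are also known to give polyadenylated mRNA, as the separately encoded variant histones such as H3f3a do throughout the cell cycle.

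RNA bound to FLAG-tagged RIG-I, a cytosolic RNA sensor, was sequenced from B16F10 cells, a mouse melanoma line that the labels give as WT in genotype. All cells stably expressed FLAG-RIG-I and carried a lentiviral shRNA under puromycin selection, so each group is a selected cell population. The groups were a control shRNA (shCtr) and 2 shRNAs against OSGEP (shOSGEP#1 and shOSGEP#2), the catalytic subunit of the KEOPS complex that makes the t6A modification of tRNA, with 3 libraries in each. Libraries were made from total RNA after removal of ribosomal RNA, so an mRNA without a poly(A) tail could enter them. No library of unbound or input RNA was part of the series, so the amount of a histone mRNA in the cell and the share of it bound to RIG-I were not separated. In the same way, fewer cells in S phase and less histone mRNA per cell cannot be told apart.

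The shCtr libraries held 40333037, 47750758 and 41805753 counts in replicates 1, 2 and 3, and the shOSGEP#1 libraries held 34551436, 50224299 and 30697653. The shOSGEP#2 libraries held 25460689, 568995 and 14914731 counts. Replicate 2 of shOSGEP#2 was thus far shallower than the other 8 libraries, and it is described apart and was left out of the tests. Osgep, the target of the shRNAs, stood at 19.1, 19.9 and 15.5 CPM (counts scaled to a common library total) in shCtr and at 3.76, 1.15 and 1.53 CPM in shOSGEP#1. It stood at 0.0786 CPM (2 counts) and 2.88 CPM in replicates 1 and 3 of shOSGEP#2 and at 0 in the shallow library, whose depth allows up to 5.27 CPM for a count of 0. Osgep was lower in each shOSGEP library than in any shCtr library. Its log2 fold changes of -3.10 (SE 0.73) and -3.84 (SE 0.93) gave adjusted p of 0.0128 and 0.0150 (edgeR quasi-likelihood F-test, Benjamini-Hochberg), on the far side of the 0.01 threshold used for all genes. The shOSGEP#2 value was -2.78 without its replicate 1 and -7.86 without its replicate 3. These adjusted p ranged over the alternative settings from 0.000639 to 0.811 for shOSGEP#1 and from 0.000838 to 0.302 for shOSGEP#2.

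Of the 67 histone genes, 64 had at least 1 count in some library. The 3 without any were Hist1h1b, Hist1h2bp and Hist1h2ap. Over all 9 libraries 18 genes had from 1 to 100 counts, 4 had over 100 and up to 1000, 9 had over 1000 and up to 10000, and 33 had over 10000. By library, 58, 59 and 61 histone genes were detected in shCtr replicates 1, 2 and 3, and 54, 56 and 51 in shOSGEP#1. In shOSGEP#2, 53 and 50 were detected in replicates 1 and 3, and 19 in the shallow library. Every library of shCtr detected 55 of them, every library of shOSGEP#1 49, and both deeper libraries of shOSGEP#2 47. The shOSGEP#2 libraries were also the shallowest, so their lower number of detected histone genes cannot be told apart from depth.

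The share of all counts on histone genes was 0.455%, 0.557% and 0.832% in shCtr and 0.646%, 0.501% and 0.240% in shOSGEP#1. For shOSGEP#2 this share was 0.427% in replicate 1 and 0.486% in replicate 3. The 95% Wilson interval was widest in the latter of these 8 libraries, at 0.482% to 0.489%, and such intervals and limits cover counting error only. The mean share was 0.615% ± 0.195 (SD, n = 3) for the shCtr libraries, against a shOSGEP#1 mean of 0.463% ± 0.206 (SD, n = 3) and a shOSGEP#2 mean of 0.457% ± 0.0412 (SD, n = 2). The log2 difference from shCtr was -0.48 for shOSGEP#1 and -0.39 for shOSGEP#2, against pooled SDs of 0.61 and 0.37, and both shOSGEP groups overlapped shCtr. The highest share, in shCtr replicate 3, and the lowest, in shOSGEP#1 replicate 3, weighed on these differences. Leaving out shCtr replicate 3 gave the smallest shOSGEP#2 difference of any library left out (-0.14), and over the libraries left out in turn the shOSGEP#1 difference ran from -0.78 to -0.065. With the shallow library included the shOSGEP#2 difference was -0.13.

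**Figure D1:**
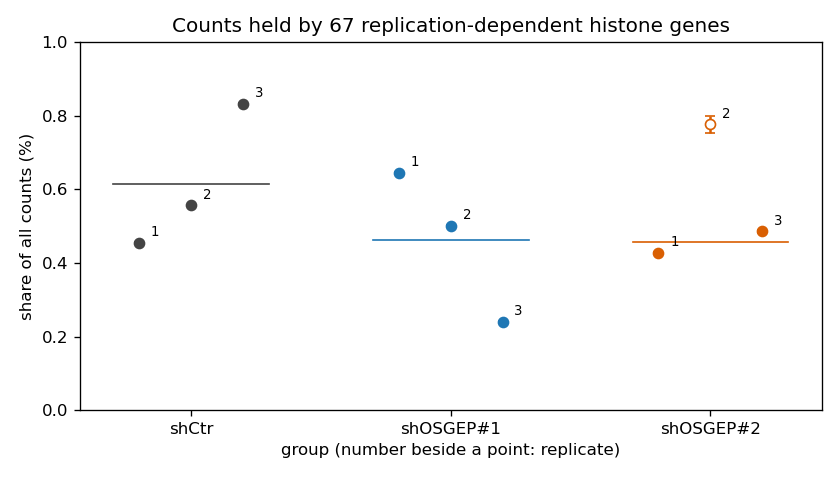
Share of all counts held by the 67 histone genes (percent, vertical axis) in each library by group, with 95% Wilson intervals and a line at each group mean of the 8 deeper libraries, and with an open circle for the shallow library. shCtr replicate 3 is highest at 0.832% and shOSGEP#1 replicate 3 lowest at 0.240%, and the groups overlap.

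The same libraries stood at the ends of other lists linked to the cell cycle. The summed CPM of 25 S-phase genes, such as Pcna, was 2053, 2212 and 3018 in shCtr, 2943, 2718 and 1593 in shOSGEP#1, and 1985 and 1752 in replicates 1 and 3 of shOSGEP#2. The summed CPM of 18 mitosis genes, such as Top2a, was 1246, 1316 and 1822 in shCtr, 1455, 1386 and 721 in shOSGEP#1, and 1263 and 1305 in shOSGEP#2. Thus shCtr replicate 3 had the highest sum of histone, S-phase and mitosis genes, and shOSGEP#1 replicate 3 had the lowest of each, among these 8 libraries. Mitochondrially encoded genes took 2.96% of the counts in shOSGEP#1 replicate 3, and between 0.147% and 0.445% in the other 7. The part of these differences between libraries in the histone shares was not tested.

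By class, and per kilobase of coding length to allow comparison between genes of unlike length, H4 genes were the most abundant. Their summed level was 4453 CPM per kb as a mean of the 8 libraries, followed by H3 at 3134, H2A at 2886, H2B at 1549 and H1 at 1254. For H4 the shCtr mean was 5343 ± 1974 CPM per kb (SD, n = 3), the shOSGEP#1 mean 3820 ± 1647 (SD, n = 3) and the shOSGEP#2 mean 4066 ± 629 (SD, n = 2). For H1, at the other end, the shCtr mean was 1504 ± 542 CPM per kb (SD, n = 3), the shOSGEP#1 mean 859 ± 356 (SD, n = 3) and the shOSGEP#2 mean 1470 ± 289 (SD, n = 2). In shCtr, neighbours in this order differed by less than the larger of their SDs, except H2A at 3330 ± 1363 and H2B at 1717 ± 172 CPM per kb. The order was not the same in each group: in shOSGEP#2 the mean of H2A (2500 CPM per kb) was above that of H3 (2316) and the mean of H1 (1470) above that of H2B (1155).

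Histone counts were spread unevenly over the genes. The 5 histone genes with the most counts held 28.0% of all histone counts of the 8 libraries, the top 10 held 49.5% and the top 20 held 80.8%. Per kilobase of coding length the highest mean levels were those of Hist2h2aa1 (910 CPM per kb), Hist1h4h (869), Hist1h4d (777) and Hist2h4 (672), followed by the H3 genes Hist2h3c2 (632) and Hist2h3b (610). Copies of these genes share sequence, and the counting of reads that match several copies is not stated. Of the 67 genes, 24 had under 50% of their 100-base stretches unique among the histone genes. Hist2h2aa2 had 0% and Hist2h2aa1 11.9%, and Hist2h3b had 22.9% and Hist2h3c2 38.4%, so the split of counts within these copies is uncertain. Hist1h4d, Hist2h4, Hist3h2a, Hist2h2bb and Hist2h2be were unique throughout (100%), which leaves their counts apart from other histone genes. Hist3h2a overlaps Trim17 on the same strand, a gene with 259 counts in all, and Hist1h1e overlaps Hist1h2be on the same strand, so counts there may be shared.

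The 3 most abundant H1 genes, which encode the linker histones that bind where DNA enters the nucleosome, differed in pattern. Hist1h1c stood at 274, 397 and 559 CPM in shCtr, at 223, 205 and 111 CPM in shOSGEP#1, and at 349 and 542 CPM in shOSGEP#2. All shOSGEP#1 values of Hist1h1c lay below all others, while shOSGEP#2 lay within shCtr. Hist1h1e stood at 221, 269 and 379 CPM in shCtr, at 270, 237 and 93.5 CPM in shOSGEP#1, and at 319 and 308 CPM in shOSGEP#2. Both shOSGEP groups overlapped shCtr for Hist1h1e, while its shOSGEP#2 values lay above those of shOSGEP#1. Hist1h1d stood at 159, 239 and 407 CPM in shCtr, at 244, 189 and 92.2 CPM in shOSGEP#1, and at 148 and 223 CPM in shOSGEP#2. Of the other H1 genes, the testis gene Hist1h1t reached 7.11 CPM and Hist1h1a 5.19 CPM at most in the 8 libraries. As a share of histone counts, H1 took 14.5%, 16.4% and 16.3% in shCtr, 11.5%, 12.7% and 12.4% in shOSGEP#1, and 19.2% and 22.3% in shOSGEP#2. The 3 groups did not overlap in this share, which was lowest in shOSGEP#1 and highest in shOSGEP#2. This pattern was seen in the data and not tested, and the share also depends on the levels of the other classes. The summed H1 level was 660, 914 and 1356 CPM in shCtr and 743, 638 and 299 CPM in shOSGEP#1. In shOSGEP#2 it was 821 and 1084 CPM. Both shOSGEP groups thus overlapped shCtr in summed H1, at log2 differences of -0.84 and 0.013 against pooled SDs of 0.62 and 0.46.

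Among the H2A genes, whose proteins pair with H2B, Hist2h2aa1 stood at 259, 314 and 687 CPM in shCtr, at 371, 369 and 159 CPM in shOSGEP#1, and at 249 and 431 CPM in shOSGEP#2. Its near-identical copy Hist2h2aa2 stood at 175, 185 and 173 CPM in shCtr, at 317, 125 and 175 CPM in shOSGEP#1, and at 153 and 128 CPM in shOSGEP#2. The ratio of these copies differed between libraries, with the uncertainty of their split given above. Hist3h2a stood at 170, 192 and 324 CPM in shCtr, at 231, 166 and 122 CPM in shOSGEP#1, and at 98.3 and 157 CPM in shOSGEP#2, where both values lay below shCtr. The summed H2A level was 930, 1055 and 1907 CPM in shCtr, 1389, 1116 and 649 CPM in shOSGEP#1, and 860 and 1088 CPM in shOSGEP#2, so the groups overlapped.

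Among the H2B genes, Hist1h2bg stood at 176, 184 and 170 CPM in shCtr, at 279, 163 and 48.3 CPM in shOSGEP#1, and at 191 and 98.8 CPM in shOSGEP#2. Hist1h2be stood at 70.7, 66.1 and 72.3 CPM in shCtr, at 102, 74.6 and 21.2 CPM in shOSGEP#1, and at 87.6 and 36.4 CPM in shOSGEP#2. For both genes the 3 shCtr libraries were close together and the shOSGEP libraries lay on either side of them. Hist1h2bc stood at 145, 130 and 176 CPM in shCtr, at 214, 175 and 130 CPM in shOSGEP#1, and at 117 and 73.4 CPM in shOSGEP#2, where both values lay below the other 6. The summed H2B level was 617, 606 and 724 CPM in shCtr, 918, 649 and 297 CPM in shOSGEP#1, and 550 and 323 CPM in shOSGEP#2. Both shOSGEP#2 sums lay below shCtr, by a log2 difference of -0.62 against a pooled SD of 0.33. The difference was -0.23 without shOSGEP#2 replicate 3 and -1.004 without its replicate 1.

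Among the H3 genes, Hist2h3c2 stood at 232, 273 and 531 CPM in shCtr, at 315, 257 and 130 CPM in shOSGEP#1, and at 137 and 189 CPM in shOSGEP#2. Hist2h3b stood at 237, 294 and 405 CPM in shCtr, at 327, 252 and 107 CPM in shOSGEP#1, and at 148 and 221 CPM in shOSGEP#2. Hist1h3f stood at 201, 223 and 303 CPM in shCtr, at 321, 196 and 89.9 CPM in shOSGEP#1, and at 184 and 158 CPM in shOSGEP#2. For all 3 genes both shOSGEP#2 values lay below shCtr, as those of 23.6% of all genes did, while shOSGEP#1 overlapped it. The summed H3 level was 1237, 1453 and 2028 CPM in shCtr, 1785, 1319 and 532 CPM in shOSGEP#1, and 924 and 970 CPM in shOSGEP#2, a log2 difference of -0.70 for shOSGEP#2 against a pooled SD of 0.30. The shallow library stood at 1663 CPM, within shCtr, and with it included the difference was -0.43.

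Among the H4 genes, Hist1h4h stood at 215, 307 and 464 CPM in shCtr, at 307, 272 and 90.5 CPM in shOSGEP#1, and at 205 and 287 CPM in shOSGEP#2. Hist1h4d stood at 165, 225 and 453 CPM in shCtr, at 244, 166 and 190 CPM in shOSGEP#1, and at 158 and 318 CPM in shOSGEP#2. Hist2h4 stood at 152, 237 and 399 CPM in shCtr, at 220, 204 and 105 CPM in shOSGEP#1, and at 155 and 188 CPM in shOSGEP#2. The groups overlapped for these 3 genes and for the summed H4 level, which was 1106, 1537 and 2310 CPM in shCtr, 1626, 1290 and 626 CPM in shOSGEP#1, and 1119 and 1394 CPM in shOSGEP#2.

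Levels also differed along chromosome 13. A run of 18 neighbouring histone genes from Hist1h2bl to Hist1h2br, in the gene order of the GENCODE M21 annotation and with ends chosen after the values were seen, held 3218 counts in all 9 libraries, or 0.211% of histone counts. Of these 18 genes, 16 had at most 100 counts, against 5 of the 49 histone genes elsewhere. The 2 exceptions were Hist1h2ao with 2352 counts and Hist1h2ai with 686, both H2A genes, of which 7.35% and 18.0% was unique. Within the run, Hist1h1b was unique throughout (100%) and had 0 counts in every library, which allows up to 0.0744 CPM in shCtr replicate 1. Hist1h2bm (93.4% unique), Hist1h2ak (89.5%) and Hist1h4j (81.0%) had 14, 9 and 14 counts. Over all histone genes the median unique share was 37.9% for those with at most 100 counts and 68.7% for those with more. The next histone genes in the order, Hist1h2ah and Hist1h2bk, had 5044 and 10503 counts. Outside the run, the 5 genes with at most 100 counts were Hist1h2bf, Hist1h2ad, Hist3h2ba, Hist1h2ba and Hist1h2aa, of which the last 2 are known as testis genes.

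**Figure D2:**
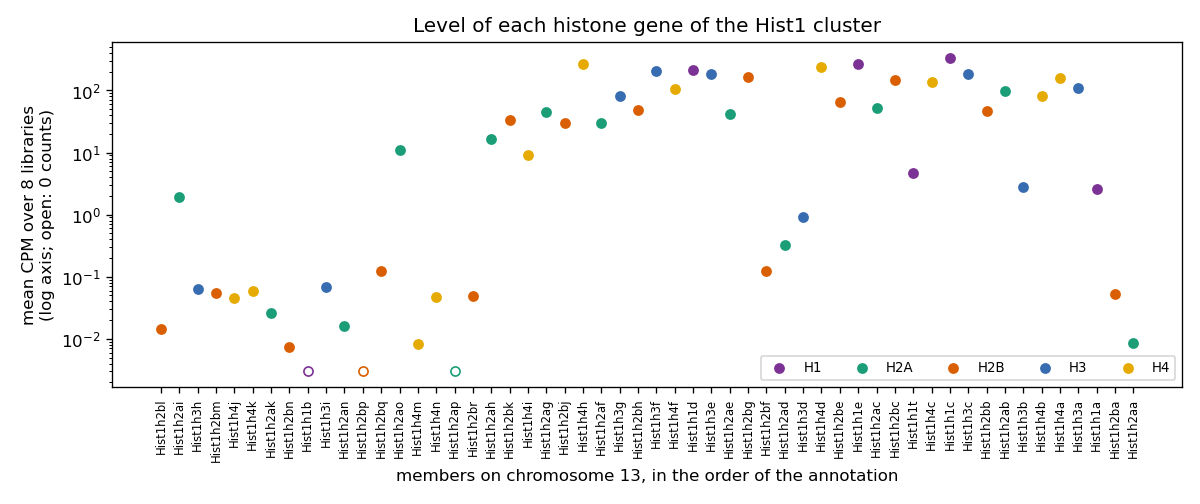
Mean CPM of the 8 deeper libraries (vertical log axis) for the 54 histone genes of chromosome 13 in annotation order (horizontal axis), with open symbols for genes at 0 counts. A stretch of 18 neighbouring genes, 16 of them with at most 100 counts in all libraries, separates from the genes at higher levels.

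Most histone genes of the H2A and H2B classes lie head to head. Starts under 1000 bases apart on opposite strands joined 13 pairs of histone genes, 12 of them an H2A gene with an H2B gene. In 6 pairs both genes had over 100 counts, and in 5 both had at most 100, so 11 of 13 pairs lay on the same side of that level. Of the low pairs, Hist1h2ak with Hist1h2bn, Hist1h2an with Hist1h2bp, and Hist1h2ap with Hist1h2br lie in the run described above. The split pairs, Hist1h2bl with Hist1h2ai and Hist1h2bq with Hist1h2ao, lie there too. In the low pair Hist1h2bf and Hist1h2ad, the latter had 100 counts, at the limit. The share expected for genes paired at random was not computed. Hist2h2ac and Hist2h2be form such a pair on chromosome 3, with 30997 and 3741 counts.

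The stem-loop letters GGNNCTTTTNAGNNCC, searched on the sense strand of the GENCODE M21 transcripts, were found in 44 of the 67 histone genes and in 34 of 21338 other protein-coding genes (0.159%). All 44 were among the 54 histone genes whose transcript model has at least 30 noncoding bases, and models without them cannot show the letters. Hist2h2be, Hist2h2bb and Hist1h2bc were without a match. The 6 forms found are shown because they are the 3′ end that these mRNAs share in place of a poly(A) signal, with the stem in capitals and the loop in lower case. They occurred in 26, 7, 6, 2, 2 and 1 genes in the order given.
form A: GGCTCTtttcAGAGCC
form B: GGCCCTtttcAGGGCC
form C: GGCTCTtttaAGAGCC
form D: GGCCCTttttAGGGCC
form E: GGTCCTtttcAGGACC
form F: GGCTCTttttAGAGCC

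Promoters were read from RefSeq (GRCm38.p6) for 62 of the 67 genes, as 250 bases before to 50 bases after the start, and searched on both strands. The letters CCAAT were found in 85.5% of histone promoters against 37.9% of all 27025 promoters, and TATAAA in 56.5% against 14.2%. The octamer ATTTGCAT was found in 21.0% against 1.75%. CCAAT was found in 100% of the H1, H2A, H2B and H3 promoters and in 25.0% of the H4 promoters. The octamer was found in 38.9% of H2A and 37.5% of H2B promoters, and in 0% of H1, H3 and H4 promoters. The 150 bases before the start are shown for 4 genes, with these motifs in capitals, where CCAAT on the other strand reads ATTGG. Hist1h1b, at chr13:21780626-21780775 on the minus strand, is shown because its promoter holds the letters of both boxes and it had 0 counts. Hist1h1c, at chr13:23738657-23738806 on the plus strand, and Hist2h2bb, at chr3:96269550-96269699 on the plus strand, are shown because their values in the shRNA groups did not overlap. Neither passed the threshold between the shRNAs in the edgeR fit with the filter on low counts, though DESeq2 called both. Hist2h2ac, at chr3:96220881-96221030 on the minus strand, is shown as the head-to-head neighbour of Hist2h2be, which has no promoter in the table.
Hist1h1b: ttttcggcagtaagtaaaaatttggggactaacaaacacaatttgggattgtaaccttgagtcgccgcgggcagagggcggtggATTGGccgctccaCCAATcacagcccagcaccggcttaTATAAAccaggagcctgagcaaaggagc
Hist1h1c: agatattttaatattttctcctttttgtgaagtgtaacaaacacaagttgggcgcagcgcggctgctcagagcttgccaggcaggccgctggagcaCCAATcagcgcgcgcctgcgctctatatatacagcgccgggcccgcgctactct
Hist2h2bb: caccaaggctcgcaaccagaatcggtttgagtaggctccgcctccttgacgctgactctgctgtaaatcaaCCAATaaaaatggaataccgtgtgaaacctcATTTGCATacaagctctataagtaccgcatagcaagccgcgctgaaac
Hist2h2ac: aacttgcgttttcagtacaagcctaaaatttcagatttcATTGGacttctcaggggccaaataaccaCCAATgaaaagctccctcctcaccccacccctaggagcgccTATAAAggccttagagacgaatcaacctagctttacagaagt

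The comparison of shOSGEP#1 with shCtr asks how loss of OSGEP changes the RNA bound to RIG-I. Of the 67 histone genes, 47 passed the filter on low counts and 20 did not. Of the 47, 0 passed adjusted p under 0.01 (edgeR quasi-likelihood F-test, Benjamini-Hochberg over all 12744 genes tested), where 9.67% of all genes passed. An unadjusted p under 0.05 was reached by 3 of 47, against 34.9% of all genes. DESeq2 called 3 of the 46 it gave an adjusted p, against 20.1% of all genes, and these were Hist1h1c, Hist1h4i and Hist2h2be, all lower. The same 3 were the histone genes whose shOSGEP#1 values all lay below shCtr, 3 of 47 against 22.2% of all genes. None (0 of 47) lay wholly above shCtr, against 23.1% of all genes.

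Hist1h1c (ENSMUSG00000036181), whose values are given above, had a log2 fold change of -1.21 (SE 0.31) and an adjusted p of 0.0173 (edgeR quasi-likelihood F-test, Benjamini-Hochberg). Hist1h4i (ENSMUSG00000060639), an H4 gene, stood at 8.01, 8.67 and 16.6 CPM in shCtr, at 6.34, 5.04 and 3.13 CPM in shOSGEP#1, and at 12.7 and 11.5 CPM in shOSGEP#2. Its log2 fold change in shOSGEP#1 was -1.21 (SE 0.35), with an adjusted p of 0.0316 (edgeR quasi-likelihood F-test, Benjamini-Hochberg), and it was -0.79 without shCtr replicate 3. Hist2h2be (ENSMUSG00000068854), an H2B gene, stood at 15.1, 17.7 and 25.1 CPM in shCtr, at 10.5, 8.98 and 9.02 CPM in shOSGEP#1, and at 2.98 and 4.43 CPM in shOSGEP#2. Each of its shOSGEP values lay below shCtr, and shOSGEP#2 lay below shOSGEP#1. In shOSGEP#1 its log2 fold change was -1.04 (SE 0.25) with an adjusted p of 0.0143 (edgeR quasi-likelihood F-test, Benjamini-Hochberg).

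Over the 47 histone genes the median log2 fold change in shOSGEP#1 was -0.38, against 0.0021 over all genes tested, and 5 of the 47 were above 0. This count held with other scalings (5 of 47 with RLE factors and with library totals), but the count and the median depended on single libraries. Without shCtr replicate 3 there were 16 of 47 above 0 and the median was -0.081, and without shOSGEP#1 replicate 3 there were 23 of 48 and the median was -0.042. The median was larger without shOSGEP#1 replicate 1 (-0.74 over 49 histone genes) and without shCtr replicate 1 (-0.60 over 47). By class the medians were -0.63 for 5 H1 genes, -0.34 for 14 H2A genes, -0.10 for 9 H2B genes, -0.34 for 10 H3 genes and -0.57 for 9 H4 genes. Among the abundant genes the log2 fold change was -0.63 (SE 0.37) for Hist1h1d, -0.55 (SE 0.33) for Hist1h1e, -0.58 (SE 0.35) for Hist2h3c2, -0.59 (SE 0.34) for Hist2h4 and -0.42 (SE 0.29) for Hist3h2a, none past the threshold. It was -0.50 for Hist2h2aa1 and -0.51 for Hist1h4d, which turned to 0.054 and 0.028 without shCtr replicate 3. Without that library the others were nearer 0 too, at -0.20 for Hist1h1d, -0.30 for Hist1h1e, -0.12 for Hist2h3c2, -0.15 for Hist2h4 and -0.073 for Hist3h2a, and without shOSGEP#1 replicate 3 they were -0.33, -0.21, -0.29, -0.32 and -0.22 in the same order. Without shOSGEP#1 replicate 1 Hist1h1e was at -0.82 and Hist3h2a at -0.68.

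The comparison of shOSGEP#2 with shCtr asks the same question with another shRNA and shares its control libraries. Hist2h2be fell by 2.49 on the log2 scale (SE 0.32), with an adjusted p of 0.000481 (edgeR quasi-likelihood F-test, Benjamini-Hochberg), and both shOSGEP#2 libraries lay below every shCtr library. It was the only 1 of 47 histone genes past the threshold, where 9.55% of all genes passed, and 10 of 47 had an unadjusted p under 0.05, against 35.6% of all genes. DESeq2 called 2 of 47, Hist2h2be and Hist2h2bb, both lower, against 18.9% of all genes. Over the alternative settings the adjusted p of Hist2h2be in this comparison ran from 2.7e-12 to 0.254 with edgeR or DESeq2, and it was past the threshold in 16 of 17, all but the fit that included the shallow library.

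Hist2h2bb (ENSMUSG00000105827), another H2B gene of chromosome 3, stood at 41.7, 42.5 and 58.5 CPM in shCtr, at 72.2, 29.0 and 33.4 CPM in shOSGEP#1, and at 18.7 and 17.2 CPM in shOSGEP#2. Both shOSGEP#2 values lay below the other 6. Its log2 fold change in shOSGEP#2 was -1.50 (SE 0.36) with an adjusted p of 0.0145 (edgeR quasi-likelihood F-test, Benjamini-Hochberg). It passed the threshold in 5 of 17 alternative settings, which were DESeq2, no filter, only these groups fitted, the replicate number as a block, and without shOSGEP#1 replicate 1, and its adjusted p ran from 0.000231 to 0.550 over them all. For Hist1h2bc (ENSMUSG00000018102) the log2 fold change was -0.75 (SE 0.26) with an adjusted p of 0.0627 (edgeR quasi-likelihood F-test, Benjamini-Hochberg), and it was -1.16 without shOSGEP#2 replicate 1 and -0.43 without its replicate 3. These H2B genes share the absence of the stem-loop letters from their transcript models. Of the 11 tested histone genes without the letters, 1 (Hist2h2be) was called by edgeR in shOSGEP#2. This compares with 0 of the 36 with the letters and 9.55% of all genes. Of the 11, 10 had a log2 fold change below 0, as had 30 of the 36.

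In shOSGEP#2 the values of 21 of 47 histone genes lay wholly below shCtr, against 23.6% of all genes, and 0 of 47 lay wholly above, against 28.7% of all genes. The median log2 fold change was -0.61, against -0.057 over all genes tested, and 7 of 47 were above 0, also with RLE factors and with library totals. Without shCtr replicate 3 the median was -0.37 and 14 of 47 were above 0, while 1 of 47 was above 0 without shCtr replicate 1 (median -0.78) and 4 of 47 without shCtr replicate 2 (median -0.66). With the shallow library included the median was -0.93, beside -0.37 over all genes. By class the medians were -0.79 for H3 and -0.80 for H2B, with all 10 H3 genes and all 9 H2B genes tested below 0. The medians were -0.56 for H2A, -0.52 for H4 and 0.017 for H1. Among the abundant genes the log2 fold change was -1.19 (SE 0.40) for Hist2h3c2, -0.86 (SE 0.39) for Hist2h3b and -0.95 (SE 0.33) for Hist3h2a, none past the threshold. Without shCtr replicate 3 they were -0.73, -0.62 and -0.60, and with the shallow library included Hist2h3b was at -0.43 and Hist3h2a at -1.50. For Hist1h1d, Hist2h2aa1 and Hist1h4d, whose sign turned in some settings, the log2 fold change was -0.64, -0.41 and -0.35. With each library left out that of Hist1h1d ran from -0.93 to -0.20.

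Several genes at the ends of the order of mean log2 fold change over both shRNAs had few counts. Hist1h2ai had 6, 19 and 96 counts in shCtr, 9, 466 and 90 in shOSGEP#1, and 0 in all shOSGEP#2 libraries. Hist1h2ao had 146, 340 and 438 counts in shCtr, 236, 241 and 114 in shOSGEP#1, and 141 and 696 in replicates 1 and 3 of shOSGEP#2. It was the only 1 of the 47 genes whose mean log2 fold change over both shRNAs was above 0, and this rested on replicate 3 of shOSGEP#2, at 46.7 CPM, since replicate 1 was at 5.54 CPM and within shCtr (3.62, 7.12 and 10.5 CPM). Both genes are nearly identical to other H2A genes, and neither passed the threshold in the edgeR fit of 8 libraries with the filter. With no filter edgeR called Hist1h2ai lower and Hist1h2ao higher in shOSGEP#2 than in shOSGEP#1, and without shOSGEP#2 replicate 1 it called Hist1h2ao higher and Hist1h3b lower in shOSGEP#2 against both other groups. That fit holds shOSGEP#2 replicate 3 as the lone library of its group, which is assumed to vary like the other groups. Hist1h3b stood at 3.97, 4.08 and 3.06 CPM in shCtr, at 5.73, 2.93 and 1.50 CPM in shOSGEP#1, and at 1.26 and 0 CPM in shOSGEP#2, where a count of 0 in replicate 3 allows up to 0.201 CPM. Hist1h2ad had 17, 22 and 16 counts in shCtr, 21, 14 and 4 in shOSGEP#1, and 2 and 4 in replicates 1 and 3 of shOSGEP#2. Next to Hist1h2ao at the upper end, Hist2h2ab and Hist2h3c1 had mean log2 fold changes of -0.092 and -0.093. Hist2h2ab stood at 2.28, 5.28 and 5.31 CPM in shCtr, at 4.40, 3.05 and 2.80 CPM in shOSGEP#1, and at 1.96 and 8.52 CPM in shOSGEP#2. Hist2h3c1 stood at 5.85, 7.94 and 11.8 CPM in shCtr, at 5.67, 7.25 and 14.2 CPM in shOSGEP#1, and at 1.85 and 13.9 CPM in shOSGEP#2. For both, the shOSGEP#2 libraries lay on either side of shCtr.

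Melanocyte markers checked the cell type and moved with shOSGEP#2. Their summed CPM (7 genes, Tyrp1 the most abundant, none at 0 in the 8 libraries) was 6336, 6039 and 8473 in shCtr, 6288, 7565 and 6840 in shOSGEP#1, and 2617 and 3374 in shOSGEP#2. Of the 7, Dct, Mlana, Pmel, Sox10 and Tyr (5) were lower past the threshold in shOSGEP#2, Tyr (1) in shOSGEP#1, and Dct, Mlana, Pmel and Sox10 (4) in shOSGEP#2 against shOSGEP#1, where 9.55%, 9.67% and 10.8% of all genes passed. DESeq2 called 7, 1 and 6 of the 7 in the same order, all lower, against 18.9%, 20.1% and 21.0% of all genes. Markers of blood, endothelial, fibroblast and epithelial cells (10 genes) summed to 3.32, 5.13 and 3.44 CPM in shCtr, 2.87, 2.73 and 6.52 CPM in shOSGEP#1, and 9.66 and 18.5 CPM in shOSGEP#2. Col1a1 was the most abundant of them, at 4.99 and 14.8 CPM in shOSGEP#2, and the blood marker Itgam was at 0 in every library. Of these 10 markers 5 passed the filter, and of the 5, 0, 0 and 1 (Col1a1, higher) were called by edgeR in shOSGEP#1, in shOSGEP#2 and between them, with 0, 1 and 1 at an unadjusted p under 0.05 and 0, 1 and 1 called by DESeq2. The part of these shifts in the histone values of shOSGEP#2 was not tested.

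The comparison of shOSGEP#2 with shOSGEP#1 asks where the shRNAs differ. Hist2h2be fell by 1.46 on the log2 scale (SE 0.31) in shOSGEP#2 relative to shOSGEP#1, with an adjusted p of 0.00663 (edgeR quasi-likelihood F-test, Benjamini-Hochberg). It was the only 1 of 47 histone genes past the threshold, where 10.8% of all genes passed, and 8 of 47 had an unadjusted p under 0.05, against 37.1% of all genes. DESeq2 called 5 of 47, against 21.0% of all genes, of which Hist1h2bc, Hist2h2be, Hist1h2ai and Hist2h2bb were lower and Hist1h1c was higher in shOSGEP#2. The call of Hist2h2be held in 8 of 17 alternative settings, with adjusted p from 0.000116 to 0.422 by edgeR or DESeq2, and log2 fold changes from -1.75 to -1.22. It was lost with all 9 libraries, with only these groups fitted, and when shCtr replicate 1 or 2, any shOSGEP#1 replicate, or shOSGEP#2 replicate 1 or 3 was left out.

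Other histone genes differed between the shRNAs without passing the threshold in the edgeR fit with the filter. Hist1h1c had a log2 fold change of 1.23 (SE 0.33) and Hist1h4i 1.24 (SE 0.39), with adjusted p of 0.0223 and 0.0396 (edgeR quasi-likelihood F-test, Benjamini-Hochberg). The former was 2.12 with the shallow library included, and the latter ran from 0.81 to 1.49 over the alternative settings. In the other direction Hist2h2bb had -1.40 (SE 0.36) and Hist1h2bc -0.93 (SE 0.26), with adjusted p of 0.0181 and 0.0253 (edgeR quasi-likelihood F-test, Benjamini-Hochberg). The former was -0.87 without shOSGEP#1 replicate 1 and the latter -0.615 without shOSGEP#2 replicate 3. By class, the median log2 fold change was 0.56 for the H1 genes, of which 4 of 5 were above 0, and -0.72 for the H2B genes, of which 0 of 9 were above 0. It was -0.35 over all 47 histone genes and -0.043 over all genes tested, and it was -0.037 over 49 histone genes without shOSGEP#1 replicate 1 and -0.73 over 48 without shOSGEP#1 replicate 3.

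**Figure D3:**
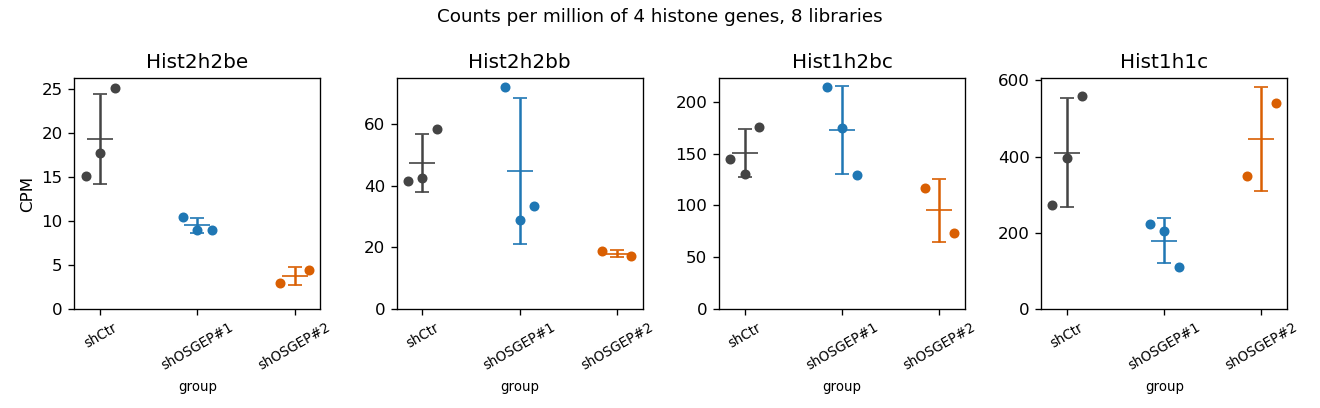
CPM (vertical axis) of Hist2h2be, Hist2h2bb, Hist1h2bc and Hist1h1c in each of the 8 deeper libraries by group, with the mean and SD of each group. The shallow library is not shown. The H2B genes Hist2h2be and Hist2h2bb are lowest in shOSGEP#2, at 2.98 and 4.43 CPM and at 18.7 and 17.2 CPM, and the H1 gene Hist1h1c is lowest in shOSGEP#1.

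Variant histones replace the replication-dependent ones in chromatin, and most are made throughout the cell cycle from polyadenylated mRNA, while H2afx is also known to give a stem-loop mRNA. Of 9 tested, edgeR called 2, 2 and 1 in shOSGEP#1, in shOSGEP#2 and between them, all lower, against 9.67%, 9.55% and 10.8% of all genes. Of all 11, DESeq2 called 2, 2 and 3, all lower but 1 between the shRNAs, against 20.1%, 18.9% and 21.0% of all genes. The summed CPM of all 11 was 2701, 2728 and 3309 in shCtr, 2365, 2160 and 1602 in shOSGEP#1, and 2180 and 2242 in shOSGEP#2, and both shOSGEP groups lay below shCtr. H3f3b, which encodes H3.3, stood at 740, 661 and 674 CPM in shCtr, at 461, 382 and 387 CPM in shOSGEP#1, and at 601 and 486 CPM in shOSGEP#2. H3f3b fell by 0.77 on the log2 scale (SE 0.15) in shOSGEP#1, with an adjusted p of 0.00535 (edgeR quasi-likelihood F-test, Benjamini-Hochberg). H3f3a, the other H3.3 gene, stood at 760, 727 and 863 CPM in shCtr, at 595, 630 and 486 CPM in shOSGEP#1, and at 389 and 299 CPM in shOSGEP#2. H3f3a fell by 1.28 (SE 0.19) in shOSGEP#2, with an adjusted p of 0.00126 (edgeR quasi-likelihood F-test, Benjamini-Hochberg). The H3f3b call was lost in 6 of 18 alternative settings and the H3f3a call in 2 of 18. H1f0, a linker histone of resting cells, fell in shOSGEP#1 (366, 333 and 416 CPM in shCtr, and 244, 203 and 223 CPM in shOSGEP#1). H2afy, which encodes macroH2A1, fell in shOSGEP#2 (104, 103 and 117 CPM in shCtr, and 49.1 and 55.8 CPM in shOSGEP#2). The ratio of replication-dependent to variant histone counts was 1.68, 2.04 and 2.52 in shCtr, 2.73, 2.32 and 1.50 in shOSGEP#1, and 1.96 and 2.17 in shOSGEP#2, with overlap of all groups.

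Genes that make and process histone mRNA were present and did not pass the test. Of 20 such genes in the table, 0 were called in each of the 3 comparisons with the edgeR quasi-likelihood F-test, against 9.67%, 9.55% and 10.8% of all genes, while 7, 6 and 7 had an unadjusted p under 0.05, against 34.9%, 35.6% and 37.1% of all genes. DESeq2 called 0, 1 and 2 of them, Eri1 in shOSGEP#2 and Ncbp1 and Ncbp2 between the shRNAs, all lower, against 20.1%, 18.9% and 21.0% of all genes. Slbp, which binds the stem-loop, stood at 48.2, 56.4 and 69.7 CPM in shCtr, at 74.9, 74.8 and 68.2 CPM in shOSGEP#1, and at 72.7 and 94.0 CPM in shOSGEP#2. Sympk, a scaffold of the cleavage complex, stood at 344, 296 and 282 CPM in shCtr, at 253, 209 and 183 CPM in shOSGEP#1, and at 252 and 200 CPM in shOSGEP#2. Upf1, a helicase in the decay of histone mRNA, stood at 242, 232 and 230 CPM in shCtr, at 267, 222 and 192 CPM in shOSGEP#1, and at 190 and 167 CPM in shOSGEP#2.

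Histone chaperones carry histones to and from DNA. Of 20 tested, 0 were called by edgeR in shOSGEP#1, 1 in shOSGEP#2 and 4 between shOSGEP#2 and shOSGEP#1, against 9.67%, 9.55% and 10.8% of all genes. In the same order 5, 8 and 10 had an unadjusted p under 0.05, against 34.9%, 35.6% and 37.1% of all genes, and DESeq2 called 2, 5 and 6, against 20.1%, 18.9% and 21.0%. Ubn1, a subunit of the HIRA complex that deposits H3.3, fell in shOSGEP#2 against shCtr and shOSGEP#1, at 130, 121 and 129 CPM in shCtr, 125, 116 and 107 CPM in shOSGEP#1 and 71.4 and 83.2 CPM in shOSGEP#2. Atrx, which deposits H3.3 together with Daxx, was lower in shOSGEP#2 (268 and 311 CPM) than in shOSGEP#1 (508, 503 and 578 CPM), and Daxx was higher (75.9 and 89.1 CPM against 47.6, 47.7 and 47.4 CPM). Nap1l1, a chaperone of H2A and H2B, was lower in shOSGEP#2 (133 and 122 CPM) than in shOSGEP#1 (240, 220 and 190 CPM). The chaperones with the highest CPM, Set and Npm1, were not called by edgeR in any comparison, though DESeq2 called Npm1 lower in shOSGEP#2 against both other groups.

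For the S-phase genes, 0 of 25 were called in each comparison with the edgeR quasi-likelihood F-test, against 9.67%, 9.55% and 10.8% of all genes, and 1, 8 and 9 had an unadjusted p under 0.05 in shOSGEP#1, in shOSGEP#2 and between them, against 34.9%, 35.6% and 37.1% of all genes. DESeq2 called 1, 2 and 2, all lower, against 20.1%, 18.9% and 21.0% of all genes. Their median log2 fold change was -0.019 in shOSGEP#1 and -0.55 in shOSGEP#2, beside -0.38 and -0.61 for the histone genes. Pcna, the sliding clamp of DNA polymerases, stood at 242, 249 and 383 CPM in shCtr, at 245, 245 and 132 CPM in shOSGEP#1, and at 185 and 167 CPM in shOSGEP#2. Uhrf1, which helps copy DNA methylation, stood at 185, 177 and 245 CPM in shCtr, at 353, 310 and 139 CPM in shOSGEP#1, and at 197 and 126 CPM in shOSGEP#2. For the mitosis genes, 0 of 18 were called in each comparison with the same test, and 6, 4 and 0 had an unadjusted p under 0.05, while DESeq2 called 5, 0 and 0, the 5 lower, each against the shares of all genes just given for that rule. Their median log2 fold change was -0.50 in shOSGEP#1 and -0.45 in shOSGEP#2. Mki67, a marker of dividing cells, stood at 130.5, 111.7 and 172.4 CPM in shCtr, at 263, 245 and 120 CPM in shOSGEP#1, and at 189 and 153 CPM in shOSGEP#2. The part of cell cycle genes in the histone values was not tested.

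The shallow library, shOSGEP#2 replicate 2, held 4423 histone counts, 0.777% of its total (95% Wilson interval 0.755% to 0.800%), a share within the range of shCtr. Its counts lay on few genes. Hist1h1c took 1360 counts, or 30.7% of the histone counts, and Hist1h1d took 688. Of 33 histone genes that would have at least 20 counts at this depth if they stood at their shCtr mean, 16 had 0 counts, among them Hist2h2aa1, Hist2h4, Hist3h2a and Hist2h2bb. Hist2h2be also had 0 counts. Its summed CPM was 4046 for H1, 666 for H2A, 293 for H2B, 1663 for H3 and 1105 for H4, so H1 took 52.0% of its histone counts.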

How the data were processed

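The deposited table holds counts per gene, which the authors made with STAR and Salmon after trimming with Trim Galore, against GRCm39 with Ensembl annotation, per the labels and methods. Whether counting used strand, and how reads matching several copies were treated, is not stated. Gene names came from GENCODE M21, and 159 gene ids had no match (at most 0.272% of counts). The 3 histone pseudogenes were left out. Genes were fitted with edgeR 4.0.16 in R 4.3.3 (TMM factors, filterByExpr, glmQLFit, 8 libraries, 12744 genes), with Benjamini-Hochberg adjustment over all of them and a threshold of 0.01, and standard errors were taken as the log2 fold change over the root of F. DESeq2 1.42.0 was the other tool. The library names carry the replicate number in every group, but no label says that a number marks a shared day or batch. Pairing by this number was therefore not used in the main fit. The study gives its replicates as independent experiments with separate transductions, which does not settle whether groups with the same number share an experiment. CPM are per total count and Wilson intervals were from scipy 1.17.1. Summed values were given without a test. The edgeR step was tested on simulated data. The members and lists were chosen with earlier results of these data known.

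Genes named were Osgep, the 3 of highest mean CPM in each of the 5 classes, members past the threshold, the 5 highest and the 5 lowest by mean log2 fold change of both shRNAs (4 of the 5 highest lie below 0), and in each other list the members past the threshold and the 2 most abundant. Hist1h1b, Hist2h2bb, Hist1h4i, the genes of the low run, the overlapping and head-to-head genes and Slbp were named after their values were seen. Alternatives changed the tool, scaling, filter, threshold, libraries and copies, and leaving out each library in turn.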

Additional observations from a re-analysis of the deposited data

Results flagged for a closer look

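The summed H1 level in the shallow shOSGEP#2 replicate 2, a library outside the tests, was 4046 CPM (95% Wilson interval 3884 to 4214), above the shCtr libraries at 660, 914 and 1356 CPM. It is a value in a library that the comparisons do not use. The interval covers counting error only and does not measure the spread of this library. There 16 of the 33 histone genes that would have at least 20 counts at their shCtr mean had 0 counts. The deeper shOSGEP#2 libraries stood at 821 and 1084 CPM, and the sums of the other 4 classes in this library were not above shCtr. It rested on Hist1h1c at 2390 CPM and Hist1h1d at 1209 CPM. In the same library the markers of other cells summed to 68.5 CPM, against 3.32 to 5.13 CPM in shCtr. Its melanocyte markers summed to 1664 CPM (6039 to 8473 in shCtr) and its S-phase genes to 721 CPM (2053 to 3018 in shCtr). The part of low depth or of these shifts in the H1 level was not tested.

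Hist2h2be differed between the effects of the shRNAs. Its log2 fold change between shOSGEP#2 and shOSGEP#1 was -1.46, with an adjusted p of 0.00663 (edgeR quasi-likelihood F-test, Benjamini-Hochberg), and adjusted p from 0.000116 to 0.422 over the alternative settings of edgeR and with DESeq2. The effects against shCtr, which share their control libraries, were -1.04 and -2.49.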

How the results depend on the processing

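Depth limits the genes with few counts, and 2 libraries in shOSGEP#2 limit the spread. Where 1 of these is left out, the other is assumed to vary like the other groups. Histone genes called in shOSGEP#1, in shOSGEP#2 and between them numbered 0, 1 and 1. They numbered 3, 2 and 5 with DESeq2, 2, 2 and 6 with no filter, 3, 2 and 7 at adjusted p under 0.05, 1, 2 and 0 with only the groups compared, and 0, 0 and 0 with all 9 libraries by edgeR. With each library left out they ranged from 0 to 1, 1 to 3 and 0 to 2, and those at an unadjusted p under 0.05 from 3 to 17, 5 to 20 and 6 to 21 (27.1% to 38.2%, 27.2% to 39.8% and 29.0% to 39.7% of all genes). All genes called numbered 1232, 1217 and 1375. They numbered 2420, 2395 and 2595 with DESeq2, 2797, 2674 and 2952 at adjusted p under 0.05, and 1495, 1023 and 737 with only the groups compared. With no filter 1748, 1603 and 1803 of 15710 genes were called, where 64 histone genes were tested. With all 9 libraries edgeR called 0, 0 and 0 (unadjusted p under 0.05 in 620, 1240 and 1325), and the common dispersion was 0.420 in place of 0.0692. With each library left out they ranged from 318 to 1458, 518 to 1471 and 743 to 1504. Without TMM factors the shOSGEP#2 calls split into 901 higher and 375 lower, against 721 and 496. The difference in summed histone share kept its direction with each library left out, from -0.78 to -0.065 and from -0.58 to -0.14. Among the fold changes given above, the sign turned for Hist1h1d in shOSGEP#2 with all 9 libraries (0.43), for Hist2h2aa1 without shCtr replicate 3 (0.054 and 0.15), and for Hist1h4d without shCtr replicate 3 (0.028 and 0.19) and in shOSGEP#2 without shOSGEP#2 replicate 1 (0.045). With each library left out, these ranged from -0.77 to 0.054 and -0.82 to 0.15 for Hist2h2aa1, and from -0.78 to 0.028 and -0.90 to 0.19 for Hist1h4d. Of 44 pairs of a named histone gene and an shRNA, 24 kept their sign in every alternative and 20 did not, among them pairs of Hist1h1c, Hist1h1e, Hist2h2aa2, Hist1h2bg, Hist1h2be, Hist1h3f, Hist1h3b, Hist1h2ad, Hist1h2ao, Hist2h2ab and Hist2h3c1. For calls and signs that moved, the cause was not tested.

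With the replicate number as a block, 1380, 1238 and 1393 genes and 0, 2 and 1 histone genes were called, with Hist2h2bb called beside Hist2h2be in shOSGEP#2 (log2 fold change -1.70). Same-numbered libraries had a mean correlation of deviations of 0.0729 over 7 pairs, 2 of them over 0.1. Of the 8 libraries, 6 correlated best with their own number, a hint from the data that the labels do not settle.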
